A study of Rattus norvegicus with 43 samples.

Results

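The effect of in utero dibutyl phthalate (DBP) on the rat foreskin was compared between the last day of dosing and the early postnatal period, as the DBP500 effect at gestational day 20 (GD20) minus the DBP500 effect at postnatal day 5 (PND5). The comparison used 25 of the 43 arrays of the series, chosen by their labels and not by any measured value. Pregnant Sprague Dawley rats received 500 mg/kg/day of DBP in corn oil, or corn oil alone, by oral gavage on gestational days 16 to 20. At GD20 there were 5 DBP500 samples and 6 corn oil samples of the same study. At PND5, with no dosing after GD20, there were 7 DBP500 samples and 7 corn oil samples. Each sample was total RNA of a pair of foreskins pooled from 1 litter, hybridised to an Illumina RatRef-12 expression array. The question was which responses ended with dosing, which persisted, and which reversed or appeared only after birth. The GD20 and PND5 arms share no array, and age, time since the last dose and study differ together between them and cannot be told apart.

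DBP is a plasticiser that is cleaved to a monoester, which in fetal rats lowers testosterone production by the testis. The foreskin (prepuce) is a fold of skin over the glans whose growth and closure in the fetus depend on androgen, and it holds epidermis, dermal mesenchyme, smooth and striated muscle, vessels, nerves and resident leukocytes. Cells that run short of amino acids or load the endoplasmic reticulum with unfolded protein make the transcription factor ATF4, which raises genes of amino acid synthesis, transport and transfer RNA charging.

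Between 10029 and 12016 probes were detected on each of the 25 arrays, and the median non-normalised signal lay between 103 and 160. Basal keratinocyte genes were present in every group. The log2 of the summed signal of 7 tested markers was 14.91 to 15.19 in GD20 DBP500 samples and 14.97 to 15.13 in GD20 corn oil samples. At PND5 it was 15.01 to 15.38 in DBP500 samples and 14.88 to 15.33 in corn oil samples. The brightest genes of a list weigh most in such a sum. The brightest probe of an array read 43294 to 55729 at GD20, above all PND5 arrays, and the part of this in the difference between the ages was not tested. At PND5 the brightest probe read 15335 to 17753 in replicates 1 to 4 and 20110 to 29459 in replicates 5 to 7, and each of these 2 sets holds both treatments. PND5 effects are therefore also given within each set. PND5 corn oil replicate 1 stood apart from the other corn oil samples for part of the nuclear genes described below. Without that array, 75 probes passed in the difference and 674 at PND5.

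Of 13577 probes tested with limma, 56 (0.412%) differed in their DBP500 effect between the ages at a Benjamini-Hochberg adjusted p below 0.05, 36 with the higher effect at GD20 and 20 with the higher effect at PND5. A probe that passed this threshold is said to be called. The separate tests called 41 probes (0.302%) at GD20, 24 higher and 17 lower in DBP500 samples, and 498 probes (3.67%) at PND5, 202 higher and 296 lower. No probe was called at both ages, with the same or with opposite signs, although 1003 probes at GD20 and 2486 at PND5 had an unadjusted p below 0.05. The 56 differences comprised 16 probes called at GD20 but not at PND5, 31 called at PND5 but not at GD20, and 9 called at neither age. The other 492 called probes, 25 at GD20 and 467 at PND5, had no call in the difference, so that their effects were not shown to differ between the ages. The count depended on the scaling and on the PND5 array set: with a median shift in place of quantile normalization 4 probes were called in the difference, 1 with the higher effect at GD20 and 3 with the higher effect at PND5, and with only replicates 5 to 7 at PND5 it was 1 probe, against 224 with only replicates 1 to 4. Leaving out GD20 DBP500 replicate 4 left 11 and leaving out PND5 DBP500 replicate 7 gave 98.

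The estimates had opposite signs for 13 of the 16 probes called at GD20 and in the difference, for the 31 called at PND5 and in the difference, and for the 9 called in the difference alone. A probe called for a large difference is favoured to have opposite signs, so these counts follow in part from the selection. Among the 492 called probes outside it 253 had opposite signs. Leaving out the called differences favours equal signs in those 492, so they are not a baseline for these counts. Among the 41 probes called at GD20, whose median effect size was 0.83 on the log2 scale, the PND5 effect had the same sign for 20 and the opposite sign for 21, and its median in the called direction was -0.0019. Its 95% interval included 0 for 34 of the 41 and lay within 0.5 of 0 for 24, while the direct test of the difference called 16 of the 41. Among the 498 probes called at PND5, with a median size of 0.60, the GD20 effect had the same sign for 222 and the opposite sign for 276, with a median of -0.018 in the called direction. Over all 13577 probes the effects had the same sign for 48.6%, and Pearson's r between them was -0.0025 (Spearman's rho -0.0234), a description across probes measured on the same arrays.

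**Figure D1:**
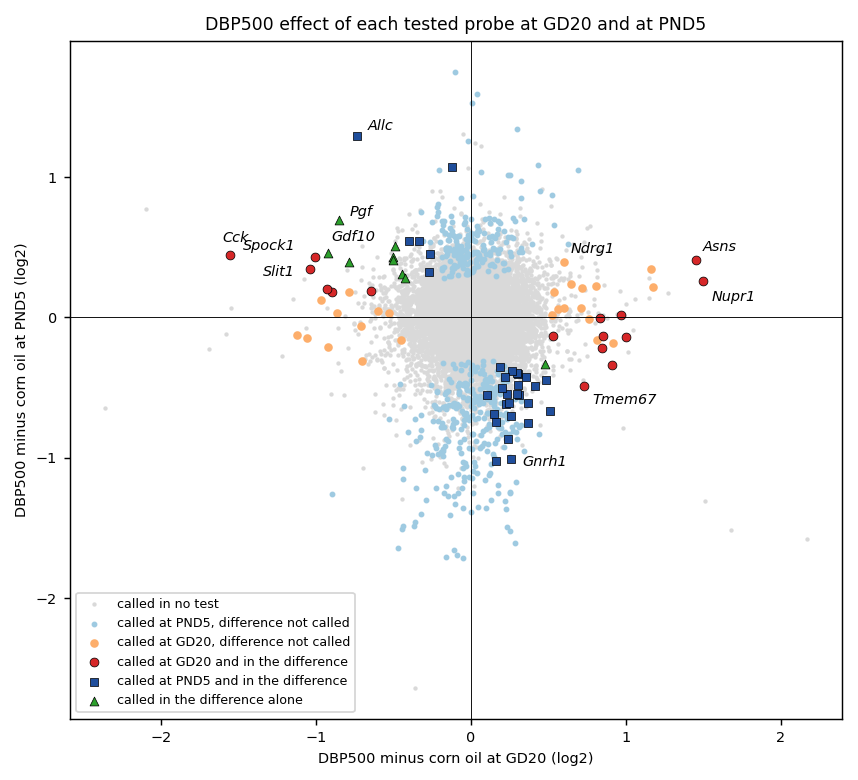
Each point is a tested probe, with its DBP500 minus corn oil difference at GD20 on the x axis and at PND5 on the y axis (both log2). Probes called at GD20 lie along the horizontal axis and probes called at PND5 along the vertical axis. Probes called in the difference lie mostly where the signs are opposite, which selection by the difference favours, whereas all 498 PND5 calls split into 222 of the same and 276 of the opposite sign.

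The genes with the smallest p at GD20 were Asns and Nupr1, both also called in the difference. Nupr1 encodes a small stress-induced nuclear protein, and Asns encodes asparagine synthetase, the enzyme that makes asparagine. Both are textbook targets of ATF4, which with a C/EBP partner binds a composite site in promoters. The 250 bases upstream of the RefSeq gene start (GRCr8) are shown for these 2 genes. The composite TGATGNAA was searched on both strands, and its match is in capitals.
Nupr1 (chr1:190645902-190646151, minus strand): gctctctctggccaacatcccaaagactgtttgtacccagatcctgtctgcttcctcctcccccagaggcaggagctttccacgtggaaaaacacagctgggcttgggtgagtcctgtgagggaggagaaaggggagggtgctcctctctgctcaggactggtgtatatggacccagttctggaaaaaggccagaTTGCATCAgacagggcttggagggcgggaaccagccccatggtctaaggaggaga
Asns (chr4:36769416-36769665, minus strand): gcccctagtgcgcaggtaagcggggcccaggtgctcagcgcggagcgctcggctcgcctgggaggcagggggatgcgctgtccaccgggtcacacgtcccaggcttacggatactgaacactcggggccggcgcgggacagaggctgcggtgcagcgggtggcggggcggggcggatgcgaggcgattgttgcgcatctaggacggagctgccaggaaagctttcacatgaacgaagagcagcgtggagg
The Nupr1 window held 1 match, on the minus strand of the gene, from base -55 to base -48 relative to the gene start. The Asns window and that of Adm2, described below, held no match. Of 11 genes called at GD20 and in the difference with a RefSeq promoter, 1 held the composite, against 899 of all 27456 promoters (3.27%).

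At GD20, Nupr1 had a log2 signal of 8.99, 9.89, 10.43, 10.31 and 9.91 in DBP500 samples, against 8.12 to 8.76 (median 8.35) in corn oil samples. At PND5 it was 10.52 to 11.41 (median 10.98) in DBP500 samples, against 10.46 to 11.09 (median 10.57) in corn oil samples. All 5 GD20 DBP500 samples lay above all 6 controls, while the PND5 groups overlapped at a level above that of any GD20 control. The GD20 effect was 2.82-fold, 1.496 ± 0.19 (adjusted p = 1.16e-05) on the log2 scale, and the PND5 effect was 0.26 (95% interval -0.09 to 0.61). The difference was 1.24 ± 0.26 (SE; 95% interval 0.71 to 1.76; adjusted p = 0.0253). Asns was 7.64, 7.79, 7.97, 8.21 and 8.23 in GD20 DBP500 samples, against 6.03 to 6.98 (median 6.49) in GD20 corn oil samples. At PND5 Asns was 6.14 to 7.14 (median 6.52) in DBP500 samples, against 5.71 to 6.67 (median 6.08) in corn oil samples. The GD20 groups did not overlap and the PND5 groups did. Its effect was 2.74-fold at GD20, 1.45 ± 0.18 (adjusted p = 9.18e-06) on the log2 scale, against 0.41 (95% interval 0.09 to 0.74) at PND5. The difference was 1.04 ± 0.24 (SE; 95% interval 0.55 to 1.53; adjusted p = 0.0385). In the 25 fits that each left out 1 array, this difference was called in 10 for Asns and in 23 for Nupr1. The PND5 estimate of Asns had the sign of the GD20 effect within both array sets, 0.31 in replicates 1 to 4 and 0.55 in replicates 5 to 7, whereas that of Nupr1 was 0.47 and -0.02.

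Adm2, which encodes the vasodilator peptide adrenomedullin 2, was detected on 5 of 5 GD20 DBP500 arrays and on 0 of 6 GD20 corn oil arrays. Its GD20 signal was 5.73, 5.69, 6.52, 5.69 and 5.90 in DBP500 samples, against 4.73 to 5.19 (median 4.87) in corn oil samples, at least 1.24-fold higher with the controls not above background (adjusted p = 0.00141). At PND5 it was detected on 1 of 7 DBP500 arrays and 3 of 7 corn oil arrays, and the groups overlapped, with a difference of 0.01 (95% interval -0.28 to 0.31). Psph, the last enzyme of serine synthesis, Cars1 and Lars1, the cysteinyl and leucyl transfer RNA synthetases, Atf5, a stress-induced transcription factor, and Eif4b, a translation initiation factor, were also called at GD20, but their differences between the ages were not. Lars1 and Eif4b were not on the amino acid stress list. In these 5 genes every GD20 DBP500 sample lay above every GD20 control, which selection by the GD20 call favours. The effect at GD20 and at PND5 was 0.65 and 0.24 for Psph, 0.60 and 0.06 for Cars1, 0.56 and 0.06 for Lars1, 0.71 and 0.07 for Atf5, and 0.52 and 0.02 for Eif4b. Of the 33 tested genes of the amino acid stress list, 6 were called higher at GD20 (0.177% of all probes were), 1 was called higher at PND5 (1.49% of all probes) and 3 were called in the difference (0.265%), all with the higher effect at GD20. The estimate was above 0 for 30 of the 33 at GD20 and for 25 at PND5, with medians of 0.23 at GD20 and 0.07 at PND5, against 0.0016 and 0.018 over all probes. The members of this list were chosen with earlier results of these data known, so these values describe the list and do not test it.

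Among the other genes higher at GD20, Pdgfra encodes the platelet-derived growth factor receptor of dermal mesenchyme and Scd encodes stearoyl-CoA desaturase, which makes monounsaturated fatty acids. Pdgfra was 10.40, 10.47, 11.01, 10.45 and 10.18 in GD20 DBP500 samples, against 9.30 to 10.11 (median 9.57) in GD20 corn oil samples. At PND5 Pdgfra was 9.53 to 10.02 (median 9.71) in DBP500 samples, against 9.72 to 10.26 (median 9.95) in corn oil samples. All 5 GD20 DBP500 samples were above the controls, while 4 of 7 PND5 DBP500 samples were below all PND5 controls. Its effects were 0.85 ± 0.17 (adjusted p = 0.0125) at GD20 and -0.22 (95% interval -0.52 to 0.08) at PND5. They differed by 1.07 ± 0.23 (SE; 95% interval 0.61 to 1.53; adjusted p = 0.0253). Scd was 9.12, 9.21, 9.37, 8.88 and 9.37 in GD20 DBP500 samples, against 7.89 to 8.60 (median 8.08) in GD20 corn oil samples, and overlapped at PND5, where DBP500 samples were 9.53 to 10.35 (median 9.79), against 9.45 to 10.35 (median 10.22) in corn oil samples. Its effect at GD20 was 1.003 ± 0.21 (adjusted p = 0.0137), against -0.14 (95% interval -0.51 to 0.23) at PND5. The difference was 1.14 ± 0.28 (SE; 95% interval 0.59 to 1.70; adjusted p = 0.0469). It was called in only 6 of the 25 fits that each left out 1 array.

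Marf1, an RNA decay factor of oocytes, rose by 0.53 at GD20 with no overlap between groups, against -0.13 (95% interval -0.33 to 0.06) at PND5, a difference of 0.66 (adjusted p = 0.0253). C2cd5, a protein of glucose transporter traffic, rose by 0.91 at GD20, where it was detected on 5 of 5 DBP500 and 1 of 6 corn oil arrays, against -0.34 (95% interval -0.68 to 0.01) at PND5, a difference of 1.25 (adjusted p = 0.0253). Tmem67 encodes a membrane protein of the ciliary transition zone. It was 6.17, 6.19, 6.29, 6.41 and 5.32 in GD20 DBP500 samples, against 4.90 to 5.57 (median 5.38) in GD20 corn oil samples. At PND5 Tmem67 was 4.79 to 5.52 (median 5.26) in DBP500 samples, against 5.42 to 6.11 (median 5.68) in corn oil samples. All but replicate 5 of the GD20 DBP500 samples were above the controls, and 6 of 7 PND5 DBP500 samples were below the PND5 controls, in a range where 4, 1, 2 and 5 arrays of these 4 groups detected it. The effects of Tmem67 were 0.73 ± 0.17 (adjusted p = 0.0464) at GD20 and -0.49 ± 0.15 (adjusted p = 0.0615) at PND5 (-0.63 and -0.29 within the 2 array sets). The difference was 1.22 ± 0.23 (SE; 95% interval 0.75 to 1.68; adjusted p = 0.017). Without GD20 DBP500 replicate 5, PND5 DBP500 replicate 7 or PND5 corn oil replicate 1, Tmem67 was called at both ages with opposite signs. Kcna4, a voltage-gated potassium channel, and Mia, a small secreted protein of cartilage and melanoma, were each detected on 4 of 5 GD20 DBP500 arrays and on 0 of 6 GD20 corn oil arrays, at least 1.23-fold higher for Kcna4 (adjusted p = 0.00408) and at least 1.53-fold higher for Mia (adjusted p = 0.0155). At PND5, Kcna4 was not above background on any array and Mia was detected on 4 of 7 arrays of each group.

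The gene with the smallest p in the difference was Cck, the precursor of the gut and brain peptide cholecystokinin. Its signal was 6.93, 7.29, 7.28, 7.42 and 6.67 in GD20 DBP500 samples, against 8.07 to 9.06 (median 8.72) in GD20 corn oil samples. At PND5 Cck was 8.03 to 9.69 (median 9.07) in DBP500 samples, against 7.597 to 9.29 (median 8.35) in corn oil samples. The GD20 groups of Cck did not overlap, and the PND5 groups overlapped. Cck was 2.94-fold lower at GD20, -1.55 ± 0.24 (adjusted p = 0.000377) on the log2 scale, and the PND5 estimate was 0.45 (95% interval 0.01 to 0.88), which was not called (adjusted p = 0.255). The difference was -2.001 ± 0.32 (SE; 95% interval -2.65 to -1.35; adjusted p = 0.00315). Within the PND5 array sets the effect was 0.93 in replicates 1 to 4 and -0.20 in replicates 5 to 7. With only replicates 1 to 4 at PND5, Cck was called at both ages, lower at GD20 and higher at PND5 (adjusted p = 0.0179).

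Secreted and matrix-associated products followed. Spock1, which encodes the matrix proteoglycan testican-1, was 5.98, 5.55, 5.91, 6.12 and 6.04 in GD20 DBP500 samples, against 6.42 to 7.38 (median 6.94) in GD20 corn oil samples. At PND5 Spock1 was 7.07 to 8.0 (median 7.79) in DBP500 samples, against 6.72 to 7.69 (median 7.15) in corn oil samples. No GD20 DBP500 sample reached a control, and 4 of 7 PND5 DBP500 samples exceeded all PND5 controls. Spock1 was 2.01-fold lower at GD20, -1.01 ± 0.21 (adjusted p = 0.0125), with 0.43 ± 0.18 (adjusted p = 0.181) at PND5 (0.56 and 0.27 within the array sets). The difference was -1.44 ± 0.27 (SE; 95% interval -1.99 to -0.88; adjusted p = 0.017). Slit1, a ligand of the Robo guidance receptors, was 5.87, 5.10, 5.60, 5.20 and 4.91 in GD20 DBP500 samples, against 5.53 to 6.85 (median 6.59) in GD20 corn oil samples, with 3 of 5 below all controls and detection on 2 of 5 and 5 of 6 arrays. Its effect was -1.04 ± 0.21 (adjusted p = 0.0116) at GD20 and 0.35 (95% interval -0.02 to 0.72) at PND5, where 3 of 7 DBP500 and 2 of 7 corn oil arrays detected it. The difference was -1.39 ± 0.28 (SE; 95% interval -1.95 to -0.83; adjusted p = 0.0235).

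Cyp1b1 encodes a cytochrome P450 that hydroxylates oestradiol and many foreign compounds. It was 6.95, 6.39, 6.51, 6.48 and 6.16 in GD20 DBP500 samples, against 7.09 to 7.61 (median 7.42) in GD20 corn oil samples, with no overlap. At PND5 Cyp1b1 was 7.51 to 8.13 (median 7.95) in DBP500 samples, against 7.46 to 7.99 (median 7.68) in corn oil samples, with overlap. The effect was 1.86-fold lower at GD20, -0.90 ± 0.16 (adjusted p = 0.00408), and 0.18 (95% interval -0.11 to 0.48) at PND5. The difference was -1.08 ± 0.22 (SE; 95% interval -1.52 to -0.64; adjusted p = 0.0241). Hsd11b2, the other called enzyme of the steroid metabolism list, which inactivates glucocorticoid, had an effect of -0.79 ± 0.18 (adjusted p = 0.0318) at GD20 and was 0.18 (95% interval -0.14 to 0.50) at PND5, but the difference of -0.97 (adjusted p = 0.0516) was not called. Dhrs7c encodes a short-chain dehydrogenase of the sarcoplasmic reticulum of striated muscle. Its signal was 8.84, 8.62, 9.01, 8.95 and 8.55 in GD20 DBP500 samples, against 9.27 to 10.14 (median 9.74) in GD20 corn oil samples, without overlap. At PND5 Dhrs7c was 7.41 to 8.35 (median 7.95) in DBP500 samples, against 6.997 to 8.02 (median 7.74) in corn oil samples. Dhrs7c was 1.90-fold lower at GD20, -0.93 ± 0.20 (adjusted p = 0.0164), against 0.20 (95% interval -0.15 to 0.55) at PND5. The difference was -1.13 ± 0.26 (SE; 95% interval -1.66 to -0.60; adjusted p = 0.0385). The log2 of the summed signal of the 30 tested skeletal muscle genes was 11.33 to 12.05 in GD20 DBP500 samples, against 11.84 to 13.06 in GD20 corn oil samples. At PND5 it was 14.53 to 15.42 in DBP500 samples, against 14.58 to 15.71 in corn oil samples. Of these genes, 6 were detected on no GD20 DBP500 array and 4 on no GD20 corn oil array. The part of muscle content in the Dhrs7c result was not tested, and in whole tissue fewer cells of a type and less RNA per cell cannot be told apart.

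**Figure D2:**
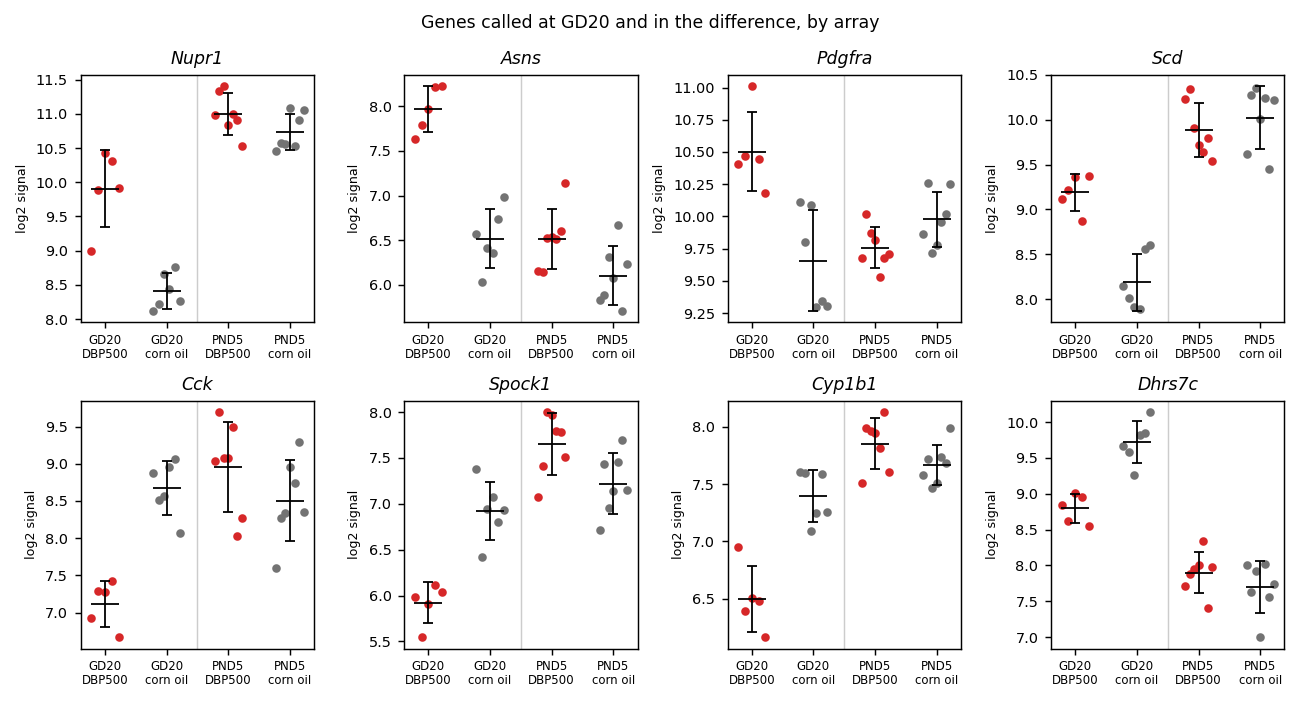
Log2 signal of 8 genes called at GD20 and in the difference, 1 point per array, in DBP500 (red) and corn oil (grey) samples of GD20 (left) and PND5 (right), open where the probe was not detected. Bars are the group mean ± SD. The GD20 groups do not overlap in any of the 8 panels, which selection by the GD20 call favours, and the PND5 groups overlap in all 8.

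The remaining genes called at GD20 could not be placed, because their difference between the ages was not called. They were Gprc5a, Tp53inp1, Cldn4, Elovl3, Slc26a4, Fut1 and Ndrg1 among the higher genes, and Necab2, Ltbp2, Btnl7, Id2 and Tagln among the lower ones, beside Hsd11b2 and the 5 genes from Psph to Eif4b above. Ltbp2, a matrix protein of elastic fibres, was 8.85, 8.93, 8.83, 8.98 and 8.97 in GD20 DBP500 samples, against 9.54 to 10.04 (median 9.76) in GD20 corn oil samples, without overlap, an effect of -0.86 ± 0.18 (adjusted p = 0.0139). At PND5 its effect was 0.03 (95% interval -0.29 to 0.35), and the difference was -0.89 (adjusted p = 0.0765). Cldn4, a tight junction claudin, rose by 0.81 at GD20 with no overlap and was 0.23 (95% interval -0.04 to 0.49) at PND5, a difference of 0.58 (adjusted p = 0.169). Elovl3, a fatty acid elongase of sebaceous gland, rose by 1.18 at GD20 with no overlap and was 0.22 (95% interval -0.27 to 0.71) at PND5, a difference of 0.96 (adjusted p = 0.236).

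Of the 31 probes called at PND5 and in the difference, 25 were lower in PND5 DBP500 samples and 6 were higher. The balance of all PND5 calls, 202 higher and 296 lower, depended on the arrays: replicates 5 to 7 alone gave 15 higher and 11 lower, and replicates 1 to 4 alone gave 275 higher and 438 lower. Of 16 with a gene name, 13 were lower at PND5. The largest decrease of a named gene was that of Gnrh1, the precursor of gonadotropin-releasing hormone. It was 7.93, 8.07, 8.20, 8.51 and 8.16 in GD20 DBP500 samples, against 7.40 to 8.37 (median 7.93) in GD20 corn oil samples. At PND5 Gnrh1 was 5.75 to 6.82 (median 5.97) in DBP500 samples, against 6.599 to 7.72 (median 6.97) in corn oil samples. The GD20 groups overlapped, and 6 of 7 PND5 DBP500 samples lay below all PND5 controls. Gnrh1 was 2.01-fold lower at PND5, -1.01 ± 0.19 (adjusted p = 0.00329), with -1.39 in replicates 1 to 4 and -0.50 in replicates 5 to 7. The GD20 effect was 0.26 (95% interval -0.18 to 0.70). The difference was 1.27 ± 0.29 (SE; 95% interval 0.68 to 1.86; adjusted p = 0.0365).

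Ccnl1 encodes cyclin L1, a partner of kinases that act on the splicing machinery. Its promoter is shown because Ccnl1 had the smallest p in the difference among the named genes of this group and was 1 of 15 such promoters with a cAMP response element, TGACGTCA, searched on both strands and printed in capitals.
Ccnl1 (chr2:152507469-152507718, minus strand): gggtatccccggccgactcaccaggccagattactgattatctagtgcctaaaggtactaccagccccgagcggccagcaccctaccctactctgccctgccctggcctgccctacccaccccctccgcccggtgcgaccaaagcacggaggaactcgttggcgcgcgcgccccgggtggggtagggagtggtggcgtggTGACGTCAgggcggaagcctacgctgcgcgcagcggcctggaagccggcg
The element lies from base -50 to base -43 and was found in 466 of all 27456 promoters (1.7%). The Ccnl1 signal was 11.15, 11.13, 11.09, 11.25 and 11.07 in GD20 DBP500 samples, against 10.77 to 11.04 (median 10.93) in GD20 corn oil samples. At PND5 Ccnl1 was 10.17 to 10.54 (median 10.38) in DBP500 samples, against 10.53 to 11.18 (median 10.88) in corn oil samples. All 5 GD20 DBP500 samples lay above the controls by a small margin, and 6 of 7 PND5 DBP500 samples lay below all controls. The PND5 effect was -0.55 ± 0.10 (adjusted p = 0.00284) (-0.60 and -0.47 within the array sets), and the GD20 effect was 0.23 ± 0.11 (adjusted p = 0.668). The difference was 0.78 ± 0.15 (SE; 95% interval 0.47 to 1.08; adjusted p = 0.0207). Rbm39, a splicing factor, was 1.32-fold lower at PND5, -0.40 ± 0.10 (adjusted p = 0.0245), with a difference of 0.70 (adjusted p = 0.0293), and 2 of 7 DBP500 samples were below all PND5 controls.

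Mdm4, an inhibitor of the tumour suppressor p53, was 8.39, 8.55, 8.64, 8.83 and 8.53 in GD20 DBP500 samples, against 8.21 to 8.61 (median 8.43) in GD20 corn oil samples. At PND5 Mdm4 was 7.30 to 8.16 (median 7.84) in DBP500 samples, against 8.18 to 9.02 (median 8.43) in corn oil samples. The PND5 groups did not overlap and the GD20 groups did. The effect was -0.75 ± 0.15 (adjusted p = 0.00381) at PND5 (-0.86 and -0.61 within the sets) and 0.16 (95% interval -0.17 to 0.49) at GD20. The difference was 0.91 ± 0.22 (SE; 95% interval 0.46 to 1.35; adjusted p = 0.047). Orc2, a subunit of the origin recognition complex, was 7.68 to 8.26 (median 8.04) in PND5 DBP500 samples, against 8.29 to 8.61 (median 8.47) in PND5 corn oil samples, without overlap, while at GD20 it was 8.29, 8.21, 8.36, 8.31 and 8.004 in DBP500 samples, against 7.65 to 8.17 (median 7.96) in corn oil samples. Its effects were -0.48 ± 0.11 (adjusted p = 0.0144) at PND5 (-0.52 and -0.43 within the sets) and 0.30 (95% interval 0.05 to 0.56) at GD20. The difference was 0.78 ± 0.17 (SE; 95% interval 0.44 to 1.12; adjusted p = 0.0253). Hmgn3, a nucleosome-binding protein, had PND5 effects within the sets of -1.11 and -0.28, with -0.75 ± 0.16 (adjusted p = 0.00895) over all arrays, and 0.37 (95% interval -0.00025 to 0.74) at GD20. The difference was 1.12 ± 0.24 (SE; 95% interval 0.63 to 1.62; adjusted p = 0.0253).

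Zc3h7a, a zinc finger protein of RNA processing, was lower at PND5 without overlap, 9.59 to 10.33 (median 10.14) in DBP500 samples, against 10.40 to 10.81 (median 10.68) in corn oil samples, an effect of -0.55 ± 0.10 (adjusted p = 0.00313) (-0.58 and -0.51 within the sets). At GD20 its effect was 0.11 (95% interval -0.13 to 0.34), and the difference was 0.66 (adjusted p = 0.0429). Atxn3, a deubiquitinase, was also lower at PND5 without overlap, 5.86 to 6.31 (median 6.15) in DBP500 samples, against 6.54 to 6.89 (median 6.75) in corn oil samples, an effect of -0.61 ± 0.13 (adjusted p = 0.00895) (-0.55 and -0.69 within the sets). It was detected on 1 of 5 DBP500 and 0 of 6 corn oil arrays at GD20, so that its fetal level was near or below background. Selenoo, a mitochondrial selenoprotein, was 1.46-fold lower at PND5 (-0.55 and -0.55 log2 within the sets), Fnbp4, a protein that binds formin, was 1.40-fold lower (-0.57 and -0.37), Zup1, a deubiquitinase, was 1.41-fold lower (-0.57 and -0.41), Oga, which removes N-acetylglucosamine from proteins, was 1.34-fold lower (-0.37 and -0.49), and Swt1, an RNA endonuclease in yeast, was 1.53-fold lower (-0.42 and -0.86). Their adjusted p in the difference were 0.0253 for Selenoo, 0.0393 for Fnbp4, 0.047 for Zup1, 0.0475 for Oga and 0.0429 for Swt1.

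Allc, which encodes allantoicase, an enzyme of purine breakdown, had the largest difference of a named gene. It was 4.83, 5.87, 5.52, 5.79 and 5.26 in GD20 DBP500 samples, against 4.76 to 6.86 (median 6.503) in GD20 corn oil samples. At PND5 Allc was 6.03 to 7.40 (median 6.99) in DBP500 samples, against 4.93 to 6.23 (median 5.18) in corn oil samples. The GD20 groups overlapped, and 6 of 7 PND5 DBP500 samples exceeded all PND5 controls. Detection ran to 2 of 5 DBP500 and 5 of 6 corn oil arrays at GD20, and 7 of 7 DBP500 and 3 of 7 corn oil arrays at PND5. Allc was 2.45-fold higher at PND5, 1.29 ± 0.29 (adjusted p = 0.011) (1.04 and 1.63 within the sets), with -0.74 ± 0.33 (adjusted p = 0.595) at GD20. The difference was -2.03 ± 0.44 (SE; 95% interval -2.91 to -1.15; adjusted p = 0.0253). Col13a1, a transmembrane collagen, was higher at PND5 without overlap, 5.82 to 6.11 (median 6.01) in DBP500 samples, against 5.13 to 5.65 (median 5.48) in corn oil samples, an effect of 0.55 ± 0.14 (adjusted p = 0.0203) (0.52 and 0.58 within the sets). Its GD20 effect was -0.33 (95% interval -0.64 to -0.02) and the difference -0.88 (adjusted p = 0.0391). Tmem97, a membrane protein of cholesterol handling, rose by 0.33 at PND5 (0.35 and 0.29 within the sets) and differed by -0.60 (adjusted p = 0.0475), but its other tested probe gave a difference of -0.15 (adjusted p = 0.896).

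**Figure D3:**
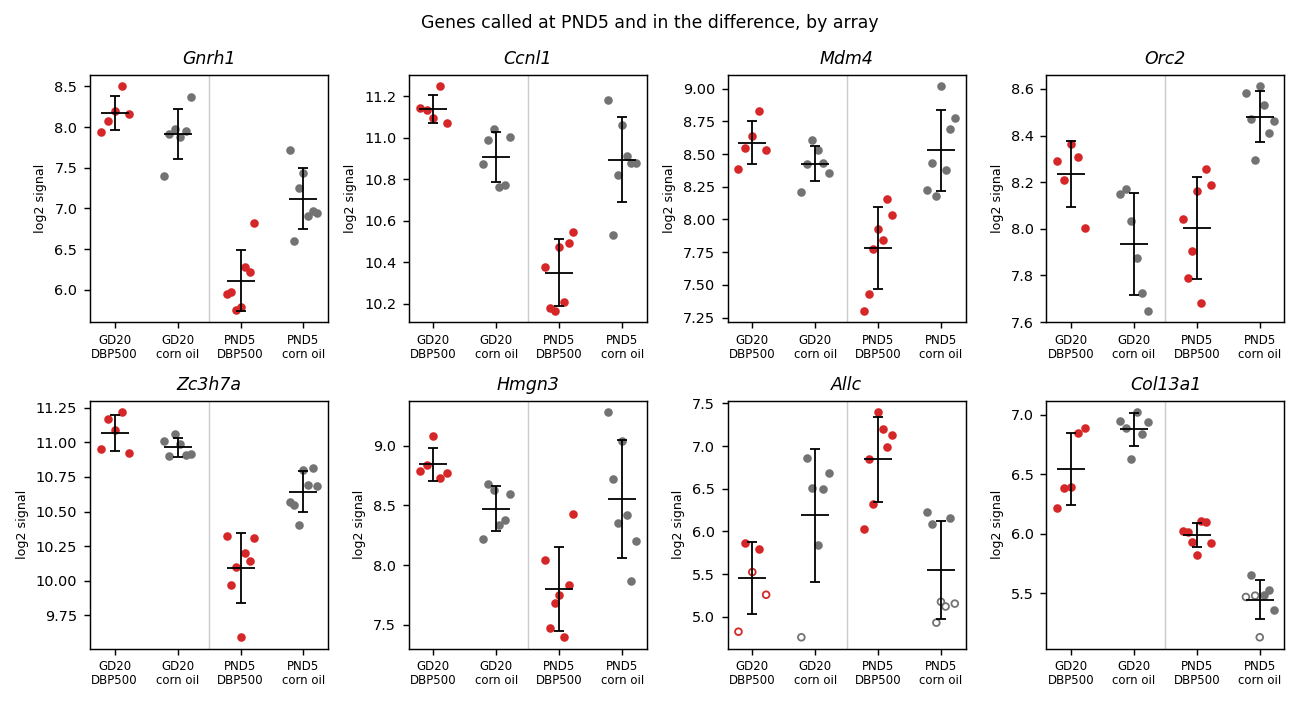
Log2 signal of 8 genes called at PND5 and in the difference, 1 point per array (DBP500 red, corn oil grey, open where not detected, bars mean ± SD). At PND5 the DBP500 samples were lower on average for Gnrh1, Ccnl1, Mdm4, Orc2, Zc3h7a and Hmgn3 and higher for Allc and Col13a1, with overlap for Gnrh1, Ccnl1, Hmgn3 and Allc.

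Most of the PND5 calls could not be placed. The largest decreases included some regulators of transcription and RNA. These were Zfp36l2, which promotes decay of AU-rich messages, Klf13 and Nfix, which are transcription factors, and Trps1, a GATA-type repressor active in hair follicles. Genes of other kinds, Wdfy1, Dusp3, Hhip, Cmip and Kdsr, were also among the largest decreases. Nfix was 7.32 to 10.57 (median 8.65) in PND5 DBP500 samples, against 8.50 to 10.72 (median 10.62) in PND5 corn oil samples. DBP500 replicates 1 to 4 held its 4 lowest values of that group, and corn oil replicate 1, at 8.50, was below all other controls, at 10.37 or more. Its PND5 effect was -1.46 ± 0.38 (adjusted p = 0.0257), -2.19 in replicates 1 to 4 and -0.49 in replicates 5 to 7, against -0.36 (95% interval -1.23 to 0.51) at GD20. The difference was 1.10 ± 0.58 (SE; 95% interval -0.07 to 2.26; adjusted p = 0.422). Klf13, with -1.48 ± 0.35 (adjusted p = 0.014) at PND5, had effects of -2.45 and -0.20 in the 2 sets, and Zfp36l2, with -1.64 ± 0.41 (adjusted p = 0.021), had -1.90 and -1.30. With replicates 1 to 4 alone at PND5 the differences of Klf13 (2.08, adjusted p = 0.0163), Nfix (1.83, adjusted p = 0.049) and Cmip (1.80, adjusted p = 0.038) were called. With replicates 5 to 7 alone they were -0.17 for Klf13, 0.13 for Nfix and 0.33 for Cmip, with no call. Of the 36 tested genes of the nuclear regulator list, 9 were called lower at PND5 (2.18% of all probes). None was called at GD20 (0.302% of all probes) or in the difference (0.412%). The medians were -0.02 at GD20 and -0.20 at PND5. This list was chosen with earlier results of these data known, so its counts are a description and not a separate test.

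Casp14, a protease of the cornifying epidermis, was not above background on any GD20 array and was 7.52 to 9.48 (median 8.23) in PND5 DBP500 samples, against 8.86 to 9.55 (median 9.19) in PND5 corn oil samples. It was 1.93-fold lower at PND5, -0.95 ± 0.18 (adjusted p = 0.00284), by the same amount in both array sets, and was the 1 of 25 tested differentiated epidermis genes called lower at PND5, where 2.18% of all probes were. No member of that list was called at GD20 (0.302% of all probes were) or in the difference (0.412%). Among genes higher at PND5, Mup4l4, a major urinary protein gene, was not above background on any GD20 array and was 3.37-fold higher at PND5, 1.75 ± 0.34 (adjusted p = 0.00395) (1.46 and 2.15 within the sets). A second Mup4l4 probe had 0.85 at PND5. Its close relatives share sequence, so that the level may belong to more than 1 gene. Ada, adenosine deaminase, was 10.57 to 11.18 (median 10.82) in PND5 DBP500 samples, against 8.18 to 10.59 (median 9.80) in PND5 corn oil samples, with 6 of 7 above all controls, an effect of 1.26 ± 0.26 (adjusted p = 0.00764) (1.29 and 1.21 within the sets). At GD20 its effect was -0.02 (95% interval -0.62 to 0.58), and the difference of -1.28 ± 0.40 (SE; 95% interval -2.08 to -0.47; adjusted p = 0.126) was not called. Of 17 tested genes of urinary proteins and purine breakdown, 5 were called higher at PND5 (1.49% of all probes) and 0 were called at GD20 (0.302%). In the difference 1 was called, Allc (0.147% of all probes had the higher effect at PND5). This list too was chosen with earlier results of these data known.

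A further 7 named genes were called in the difference alone, all lower at GD20 and higher at PND5 in DBP500 samples. Gdf10, a growth factor of the BMP3 subgroup, was 8.0, 7.93, 8.43, 8.19 and 8.20 in GD20 DBP500 samples, against 8.79 to 9.32 (median 9.11) in GD20 corn oil samples. At PND5 Gdf10 was 7.67 to 8.58 (median 8.10) in DBP500 samples, against 7.47 to 7.89 (median 7.71) in corn oil samples. All 5 GD20 DBP500 samples were below their controls, and 6 of 7 PND5 DBP500 samples were above theirs. Its effects were -0.92 ± 0.23 (adjusted p = 0.081) at GD20 and 0.46 ± 0.21 (adjusted p = 0.219) at PND5 (0.64 and 0.21 within the sets). The difference was -1.38 ± 0.31 (SE; 95% interval -2.01 to -0.75; adjusted p = 0.0314). Pgf, placental growth factor of the VEGF family, was 5.95, 5.82, 6.23, 5.44 and 6.27 in GD20 DBP500 samples, against 6.497 to 7.04 (median 6.83) in GD20 corn oil samples, without overlap. At PND5 Pgf was 6.12 to 7.05 (median 6.37) in DBP500 samples, against 5.16 to 6.40 (median 5.63) in corn oil samples. The effects of Pgf were -0.85 ± 0.27 (adjusted p = 0.28) at GD20 and 0.69 ± 0.24 (adjusted p = 0.0944) at PND5 (0.97 and 0.33 within the sets). The difference was -1.54 ± 0.36 (SE; 95% interval -2.28 to -0.81; adjusted p = 0.0391). With the 25 arrays normalised and fitted alone, Gdf10 and Pgf were each called at both ages with opposite signs.

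Gdf1, a TGF-beta family ligand, had effects of -0.50 at GD20 and 0.43 at PND5 (0.67 and 0.11 within the sets) and a difference of -0.93 (adjusted p = 0.0253), while its other tested probe gave -0.48 (adjusted p = 0.185). Batf3, a transcription factor of dendritic cells, had -0.49 at GD20 and 0.51 at PND5 (0.79 and 0.13 within the sets) and a difference of -0.99 (adjusted p = 0.0393). Ms4a4a, a macrophage surface protein, had -0.50 at GD20 and 0.41 at PND5, with 4 of 5 GD20 DBP500 samples below and 3 of 7 PND5 DBP500 samples above all controls of their age, and a difference of -0.91 (adjusted p = 0.0429). None of the 20 tested leukocyte and macrophage genes was called in any test. Of all probes, 0.302% were called at GD20, 3.67% at PND5 and 0.412% in the difference. The estimate was above 0 for 3 of the 20 at GD20 and for 16 at PND5, against 6846 and 7297 of all 13577 probes. The medians of the list were -0.21 at GD20, 0.14 at PND5 and -0.39 in the difference, against -0.0093 in the difference over all probes. The log2 of the summed signal of the leukocyte and macrophage list was 12.82 to 13.06 in GD20 DBP500 samples, against 13.04 to 13.36 in GD20 corn oil samples. At PND5 it was 13.61 to 13.91 in DBP500 samples, against 13.56 to 13.88 in corn oil samples. The part of leukocyte content in the Batf3 and Ms4a4a results was not tested. Shisa8 and Taar8c were near background: Shisa8 was detected on 1 of 5 and 5 of 6 GD20 arrays and differed by -1.18 (adjusted p = 0.0293), and Taar8c, 1 of a family of similar trace amine receptors, was detected on 0 of 5 and 1 of 6 GD20 arrays and differed by -0.76 (adjusted p = 0.0469).

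The gene nearest to a response that persisted was Ndrg1, a stress and differentiation response gene of epithelia. It was 10.23, 9.81, 10.02, 9.87 and 9.68 in GD20 DBP500 samples, against 9.14 to 9.67 (median 9.31) in GD20 corn oil samples. At PND5 Ndrg1 was 8.90 to 9.58 (median 9.05) in DBP500 samples, against 8.46 to 9.08 (median 8.71) in corn oil samples. The GD20 groups did not overlap, and 3 of 7 PND5 DBP500 samples exceeded all controls. Ndrg1 was 1.51-fold higher at GD20, 0.60 ± 0.14 (adjusted p = 0.0334), and 1.31-fold higher at PND5, 0.39 ± 0.12 (adjusted p = 0.0573), with 0.37 and 0.42 in the 2 array sets. The difference was 0.21 ± 0.18 (SE; 95% interval -0.16 to 0.58; adjusted p = 0.683). It was called at both ages under 4 other settings (a stricter detection filter, the 25 arrays alone, an intensity trend and array weights) and without PND5 DBP500 replicate 6 or PND5 corn oil replicate 2.

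Other genes had estimates of the same sign at both ages, without a call at 1 of them. Tagln, an actin-binding protein of smooth muscle, was 9.54, 9.24, 9.23, 9.38 and 9.15 in GD20 DBP500 samples, against 9.87 to 10.12 (median 10.02) in GD20 corn oil samples. At PND5 Tagln was 9.76 to 10.65 (median 10.15) in DBP500 samples, against 10.31 to 10.68 (median 10.46) in corn oil samples. The effects were -0.70 ± 0.15 (adjusted p = 0.0214) at GD20 and -0.31 ± 0.14 (adjusted p = 0.206) at PND5, and 5 of 7 PND5 DBP500 samples were below all controls. Cdc25b, a phosphatase that starts mitosis, was 7.72, 7.35, 8.06, 7.84 and 7.54 in GD20 DBP500 samples, against 6.71 to 7.68 (median 7.27) in GD20 corn oil samples, with overlap. At PND5 Cdc25b was 6.42 to 7.23 (median 6.79) in DBP500 samples, against 5.59 to 6.27 (median 5.95) in corn oil samples, without overlap. Its effects were 0.52 ± 0.19 (adjusted p = 0.426) at GD20 and 0.87 ± 0.17 (adjusted p = 0.00395) at PND5 (1.16 and 0.50 within the sets). The difference was -0.35 ± 0.26 (SE; 95% interval -0.87 to 0.17; adjusted p = 0.599). Hhip, an inhibitor and target of hedgehog signalling, had -0.89 ± 0.36 (adjusted p = 0.51) at GD20, with all 5 DBP500 samples below the controls, and -1.26 ± 0.31 (adjusted p = 0.0197) at PND5, with -1.95 and -0.34 in the sets and a difference of 0.37 (adjusted p = 0.799). The amino acid transporter Slc7a5 had 0.63 (adjusted p = 0.151) at GD20 and 0.53 (adjusted p = 0.0429) at PND5, a difference of 0.10 (adjusted p = 0.892), and with the authors' processed values it was called at both ages. The GD20 corn oil samples of both studies as controls gave 352 calls at GD20, against 41. Any difference between the 2 studies enters these GD20 effects. Under this setting 7 probes were called at both ages. Among them were Nts, a neuropeptide precursor, with 1.06 at GD20 and 1.05 at PND5, Timp3, an inhibitor of matrix proteases, with -0.98 and -0.80, and Nr1h3, an oxysterol receptor, with 0.47 and 0.47, whereas Higd1a, a mitochondrial protein, had -0.59 at GD20 and 0.69 at PND5. With array weights Slc7a1, Mmp11 and Pdcd4 joined Ndrg1 with positive effects at both ages.

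**Figure D4:**
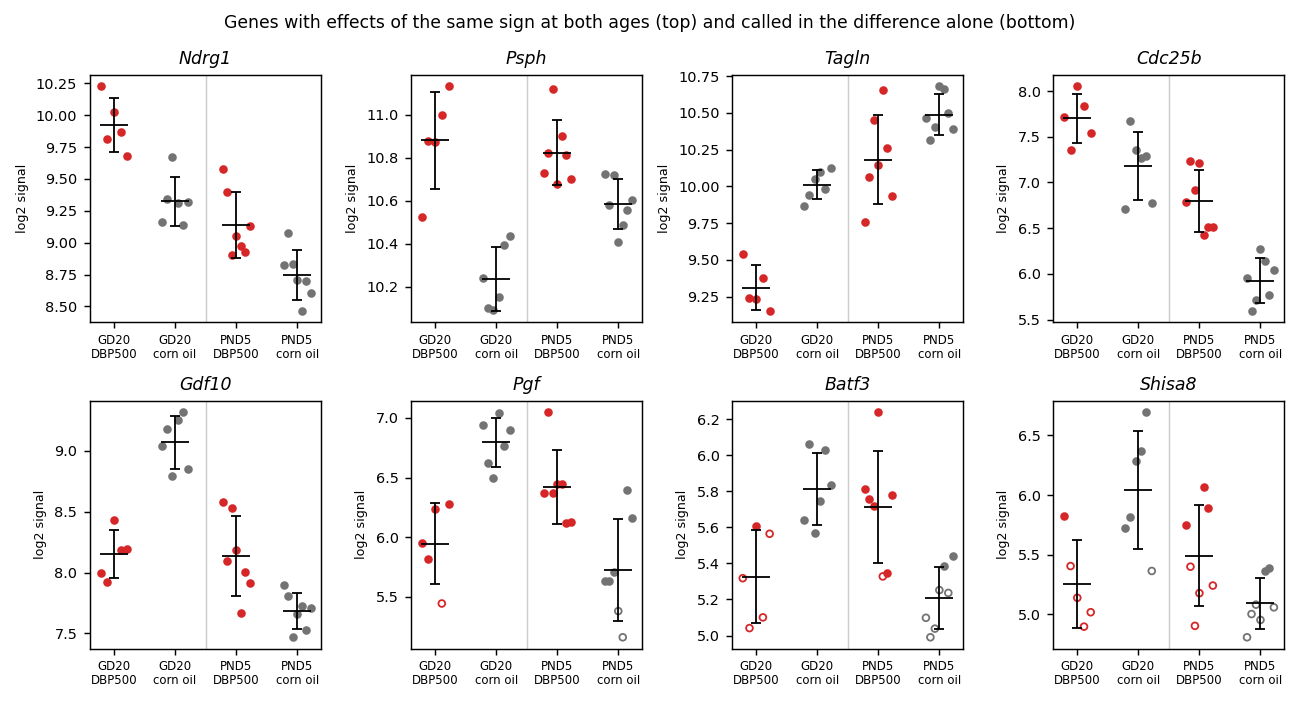
Log2 signal by array, DBP500 red and corn oil grey, open where not detected, bars mean ± SD. In the top row Ndrg1, Psph and Cdc25b were higher and Tagln lower on average in DBP500 samples at both ages; in the bottom row Gdf10, Pgf, Batf3 and Shisa8 were lower on average at GD20 and higher at PND5.

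Across the 29 gene lists, which were chosen with earlier results of these data known, the skeletal muscle list had the lowest median difference, -0.47. Of its 30 genes, 8 were above 0 at GD20 (median -0.37) and 21 at PND5 (median 0.10). Among all 13577 probes, 6846 were above 0 at GD20 and 7297 at PND5. The 1 called gene was Dhrs7c, lower at GD20 (0.125% of all probes) and in the difference (0.147%). The smooth muscle list had medians of -0.19 at GD20 and -0.19 at PND5, 3 and 6 of 15 genes above 0, and Tagln called lower at GD20 (0.125% of all probes) and Myocd, the coactivator of smooth muscle genes, called lower at PND5 (2.18% of all probes). The log2 of the summed signal of the smooth muscle list was 12.74 to 12.88 in GD20 DBP500 samples, against 12.95 to 13.11 in GD20 corn oil samples. At PND5 it was 13.60 to 13.98 in DBP500 samples, against 13.92 to 14.22 in corn oil samples. Only the PND5 ranges overlapped. Differentiated epidermis had a median of 0.23 at GD20 and 0.03 at PND5, and the hair follicle and sebaceous gland list had 0.09 at GD20 and -0.13 at PND5, with Scd called in the difference (0.265% of all probes had the higher effect at GD20). Of 23 tested peptide and hormone genes, Cck was called lower (0.125% of all probes) and Adm2 higher (0.177%) at GD20, both also in the difference. Nts, Avp and Grp were called higher at PND5 (1.49% of all probes), where Grp was detected on all 14 arrays against 0 of 11 at GD20. The hormone precursor Gnrh1, called lower at PND5, was not on this list. Fkbp5, which androgen and glucocorticoid induce, was 10.84, 10.94, 11.01, 11.23 and 10.81 in GD20 DBP500 samples, against 11.19 to 11.62 (median 11.38) in GD20 corn oil samples, with 4 of 5 below the controls. Its effects were -0.43 ± 0.14 (adjusted p = 0.299) at GD20 and 0.20 ± 0.13 (adjusted p = 0.419) at PND5, and the difference of -0.63 ± 0.19 (SE; 95% interval -1.01 to -0.24; adjusted p = 0.121) was not called. The medians of the amino acid stress, nuclear regulator, skeletal muscle, smooth muscle, leukocyte, epidermis and hair lists kept their signs at both ages with a median shift, with no background correction and with the authors' processed values, but their size moved. With the median shift the PND5 median was -0.05 for smooth muscle, -0.04 for hair, -0.11 for nuclear regulators, 0.14 for differentiated epidermis and 0.14 for amino acid stress, and over all probes it was 0.056. Without background correction and with the authors' values the skeletal muscle medians at GD20 were -0.20 and -0.18.

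**Figure D5:**
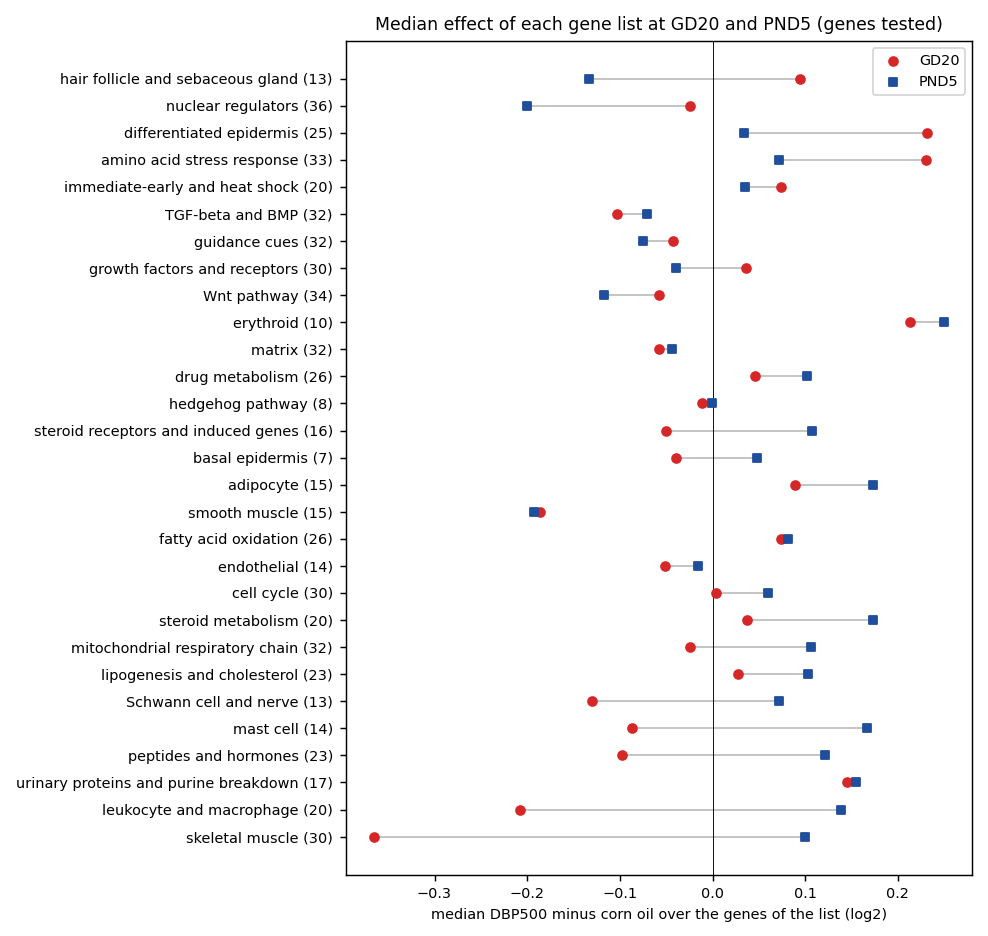
Median DBP500 minus corn oil difference (log2) of each gene list at GD20 (red circles) and PND5 (blue squares), ordered by the median difference between the ages, with the number of tested genes in brackets. Skeletal muscle and leukocyte genes lie lowest at GD20 and above 0 at PND5, while nuclear regulators lie near 0 at GD20 and lowest at PND5. The lists were chosen with earlier results of these data known.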

How the data were processed

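Total RNA of 43 foreskin samples was hybridised to Illumina RatRef-12 arrays, of which 25 enter the comparison. The deposited non-normalised table pairs each probe's intensity on an array with its detection p-value. The scanning software and settings behind these values are not given in the sources used here. The authors' processed intensity values, quantile normalised within each of 3 array sets as found from their ranks, served as an alternative. Samples were grouped by age, study and treatment, per the labels.

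Background was corrected from the detection p-values (limma 3.58.1, nec, offset 16), all 43 arrays were quantile normalised and log2 transformed, and probes with a detection p below 0.05 on at least 5 arrays were kept (13577 of 22523). A linear model over 7 groups with empirical Bayes moderation (R 4.3.3) gave both effects, their difference and p-values adjusted by Benjamini-Hochberg over all tested probes. Errors are standard errors and intervals are 95%. The number of arrays limits the precision. Samples were not treated as paired by replicate number. Deviations of same-numbered samples correlated between -0.057 and 0.114 at GD20 and between -0.050 and 0.119 at PND5. The own number was the best match for 2 of 5 pairs at GD20 and 2 of 7 at PND5, so these values cannot exclude a pairing.

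Probe names came from the platform annotation, updated through RefSeq: 13793 probes have 1 symbol, 0 have several and 8730 have none. A list member with several probes was read from the probe of highest mean signal. The genes to name were the 10 largest calls in each direction of the difference, all calls at GD20, the 10 largest in each direction at PND5, up to 4 called members of each list with the member of smallest p, and Fkbp5. Other called differences, Slc7a5 and the genes called at both ages under an alternative were named after their values were seen. The members and the 29 lists were chosen with earlier results of these data known. Alternatives changed the scaling, background, filter, arrays, controls, weights and blocks, and left out each array in turn. The test of the difference was run on simulated data with normal noise and 200 changed probes. It recovered 13.4% of true differences of 0.5 log2, 74.6% of 1 and 95.5% of 2, with 7 false calls among 129. A difference that was not called can therefore still be present.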

Additional observations from a re-analysis of the deposited data

Results flagged for a closer look

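The effect of DBP500 differed between GD20 and PND5, by the test of the difference itself (limma, adjusted p below 0.05), for 38 named genes. The effect at GD20 minus that at PND5, on the log2 scale, was above 0 for Tmem67 (1.22), C2cd5 (1.25), Nupr1 (1.24), Pdgfra (1.07), Marf1 (0.66), Adm2 (0.96), Asns (1.04), Scd (1.14), Kcna4 (0.83) and Mia (0.99), which were called at GD20. It was also above 0 for Ccnl1 (0.78), Atxn3 (0.98), Selenoo (0.86), Orc2 (0.78), Hmgn3 (1.12), Rbm39 (0.70), Gnrh1 (1.27), Fnbp4 (0.90), Swt1 (0.86), Zc3h7a (0.66), Mdm4 (0.91), Zup1 (0.70) and Oga (0.64), which were called lower at PND5. It was below 0 for Cck (-2.001), Spock1 (-1.44), Slit1 (-1.39), Cyp1b1 (-1.08) and Dhrs7c (-1.13), called lower at GD20, and for Allc (-2.03), Col13a1 (-0.88) and Tmem97 (-0.60), called higher at PND5. Called at neither age were Gdf1 (-0.93), Shisa8 (-1.18), Gdf10 (-1.38), Pgf (-1.54), Batf3 (-0.99), Ms4a4a (-0.91) and Taar8c (-0.76). The values of Adm2, Kcna4, Mia, Atxn3 and Taar8c include a group with no array above background.

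Single arrays stood far from the rest of their group, by Dixon's criterion, in 22 of 304 groups tested over 76 genes (7.24%), where chance alone gives about 1 in 20. PND5 corn oil replicate 1 accounted for 6 of them, with the lowest signal of its group for Srsf11 (10.07), Cmip (8.15), Trps1 (7.43), Nfix (8.50) and Zfp36l2 (5.92) and the highest for Eif4b (11.86). Other PND5 corn oil arrays were highest for Tmem67 (replicate 2, 6.11) and Avp (replicate 6, 6.505) and lowest for Rbm39 (replicate 3, 11.86) and Atf5 (replicate 2, 8.19). Among PND5 DBP500 arrays, replicate 2 was highest for Pgf (7.05), replicate 3 highest for Taar8c (6.16) and replicate 5 lowest for Fut1 (9.47). Among GD20 DBP500 arrays, replicate 5 was lowest for Tmem67 (5.32) and Trps1 (6.27), replicate 3 highest for Adm2 (6.52), and replicate 1 highest for Cldn4 (8.86) and Cmip (9.93). Among GD20 corn oil arrays, replicate 5 was lowest for Tmem67 (4.90) and highest for Gprc5a (5.54), replicate 3 highest for Kcna4 (5.48) and replicate 2 lowest for Hsd11b2 (5.39).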

How the results depend on the processing

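Counts are given for the difference, for GD20 and for PND5, in that order, against 56, 41 and 498. A median shift in place of quantile normalization gave 4, 18 and 34. The replicate block gave 29, 24 and 272. PND5 replicates 1 to 4 alone gave 224, 31 and 713, and replicates 5 to 7 alone gave 1, 71 and 26. The 25 arrays alone gave 91, 45 and 685, array weights gave 264, 197 and 542, and GD20 controls of both studies gave 256, 352 and 498. The cause was not tested. No background correction, no detection filter, a stricter filter, an intensity trend, the PND5 array set as a block and the authors' processed values kept all 3 counts within 1.5 times. Against 0 probes called at both ages, there was 1 with the authors' values, the stricter filter and the intensity trend, 2 with PND5 replicates 1 to 4, 3 with the 25 arrays alone, 5 with array weights and 7 with GD20 controls of both studies. Leaving out 1 array gave 11 to 98 for the difference, 22 to 46 at GD20, 190 to 730 at PND5 and 0 to 2 at both ages. The lowest were without GD20 DBP500 replicate 4, GD20 corn oil replicate 4 and PND5 DBP500 replicate 3. The difference changed sign, where it had not been called, with PND5 replicates 5 to 7 alone for Klf13 (-0.17), Wdfy1 (-0.0080), Cdc25b (0.027), Nts (0.060) and Hhip (-0.55), and with GD20 controls of both studies for Nts (0.0099). Of the 38 named called genes, 0 changed sign, 8 were called in all 25 fits without an array, and 0 in all 13 other settings. The 8 were Cck, Tmem67, Spock1, Ccnl1, Slit1, Atxn3, Cyp1b1 and Selenoo. Many others were called in fewer of the 25 fits. Among them were Nupr1 (23), Gnrh1 (13), Adm2 (11), Asns (10), Pgf (9), Dhrs7c (8), Mdm4 (7), Mia (7), Scd (6), Kcna4 (5) and Oga (3). Detection limits the genes near background on most arrays.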
